A study of Mus musculus with 8 samples.

Results

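The genes described here are 42 nuclear receptors outside the Nr4a family, taken from a list of symbols, in mouse leukocytes of glioma and of normal brain. They are 42 of the 31053 genes in the deposited tables. Of the 42, 25 reached at least 20 unique molecular identifiers (UMIs, 1 for each captured RNA molecule) in at least 1 class of cell barcodes and are called measured. The other 17 stayed under 20 UMIs in every class and were not measured at this depth: Nr1h4, Nr1i2, Nr1i3, Nr2e1, Nr2e3, Nr5a1, Nr5a2, Nr0b1, Nr0b2, Rarb, Ppara, Esr2, Esrrb, Esrrg, Hnf4a, Hnf4g and Pgr. The glioma group is CD45+ cells, that is leukocytes, sorted with magnetic beads from the brain tumour of glioma-bearing mice. The control group is the same sort from the brain of normal mice. The labels name 4 samples in each group, and each group was deposited as 1 pooled table of droplet single-cell 3' RNA counts with no map from barcodes to samples. The labels give no strain, age, glioma line, sex or time of day.

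With 1 table per group there was no replicate check, so no test between conditions is given. Each level is a sum of UMIs over a class, in UMIs per 1000000 UMIs of that class (CPM), and each ratio carries a 95% interval that covers counting error only. A gene is called higher or lower where its CPM differed by at least 2-fold, where both sums together held 20 UMIs or more, and where the interval of the ratio left out 1. Levels are compared between classes, never between genes, since neither gene length nor capture was corrected. In a sum over a class, fewer cells with a transcript and less transcript per cell cannot be told apart.

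Nuclear receptors are transcription factors, many of which bind a small lipid-soluble ligand and then change the transcription of genes beside their binding sites. The family holds receptors for hormones and vitamins (glucocorticoid, mineralocorticoid, oestrogen, thyroid hormone, vitamin D, retinoic acid), sensors of lipids (PPARs, LXRs), the REV-ERB and ROR factors of the circadian clock, and orphan receptors with no known natural ligand. RXR proteins are the shared partners of many of them. In macrophages and microglia these factors are known for control of lipid handling and of inflammatory genes, and in T cells ROR proteins act in helper cell fate.

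RefSeq promoters of build GRCm38.p6, 250 bases before the start, matched 23 of the 25 measured members. They are shown for the receptors with the highest positive ratios of glioma macrophages over control microglia (Vdr and Rara) and for both REV-ERB genes, which differed together in the opposite direction. Capitals mark AGGTCA, the nuclear receptor half-site, or CACGTG, the E-box read by clock and other factors, each searched on both strands. The promoters of Vdr and of Nr1d1 held neither, that of Nr1d2 held 1 half-site, and the second of the 4 listed for Rara held 1 E-box. Of 37 promoters of measured members, 8 held a half-site (21.6%) and 2 held an E-box (5.41%), against 14% and 6.02% of all 32851 promoters in the table. No chromosome was left out of that total. A match describes these letters and is not a binding site.
Vdr (chr15:97908297-97908546, minus strand): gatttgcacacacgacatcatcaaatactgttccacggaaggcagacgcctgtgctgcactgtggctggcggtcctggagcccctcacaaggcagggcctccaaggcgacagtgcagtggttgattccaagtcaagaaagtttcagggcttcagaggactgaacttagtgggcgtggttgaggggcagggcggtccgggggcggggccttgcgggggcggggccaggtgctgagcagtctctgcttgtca
Rara, second promoter (chr11:98937468-98937717, plus strand): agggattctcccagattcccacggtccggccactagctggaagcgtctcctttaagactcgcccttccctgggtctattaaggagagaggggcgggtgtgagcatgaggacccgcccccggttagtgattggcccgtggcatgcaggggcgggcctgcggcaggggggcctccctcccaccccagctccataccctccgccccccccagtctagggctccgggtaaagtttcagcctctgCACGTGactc
Nr1d1 (chr11:98775378-98775627, minus strand): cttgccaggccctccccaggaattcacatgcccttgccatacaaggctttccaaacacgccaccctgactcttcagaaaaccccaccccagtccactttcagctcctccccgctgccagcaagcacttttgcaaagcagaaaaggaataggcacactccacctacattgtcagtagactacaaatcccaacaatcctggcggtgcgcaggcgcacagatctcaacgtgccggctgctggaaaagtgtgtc
Nr1d2 (chr14:18239107-18239356, minus strand): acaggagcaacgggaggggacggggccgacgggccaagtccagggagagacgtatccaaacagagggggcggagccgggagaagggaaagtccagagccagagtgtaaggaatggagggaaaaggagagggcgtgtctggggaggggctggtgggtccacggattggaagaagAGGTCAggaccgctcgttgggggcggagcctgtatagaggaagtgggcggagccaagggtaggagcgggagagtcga

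Barcodes of at least 1000 UMIs and at most 10% mitochondrial UMIs numbered 11049 in the glioma library (median 11332 UMIs) and 13680 in the control library (median 6842 UMIs). A barcode joined the class with most of its 8 markers detected, which had to be 3 or more and to exceed every other list by 2. The glioma classes of at least 50 barcodes were 4918 macrophages, 1461 T cells, 479 neutrophils, 359 dendritic cells, 111 NK cells and 60 microglia. The control classes were 12341 microglia, 185 erythroid cells, 156 border macrophages, 132 endothelial cells and 53 T cells. In the glioma library 32.5% of barcodes joined no class, against 4.96% in the control library. Both libraries shared 41 of the kept barcode sequences, and every ratio called below kept its call and stayed within its interval without them. Erythroid and endothelial barcodes were present although the sort was for CD45.

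The labels of 2 small classes need their marker values. The glioma microglia carried a summed microglia list of 1142 CPM, against 10330 CPM in control microglia and 36.3 CPM in glioma macrophages. All 8 microglia markers were detected in them, among them Sall1 at 34.3 CPM, against 180 CPM in control microglia and 0.0884 CPM in glioma macrophages. Barcodes were placed by these same markers, so the values describe the class and do not test its label. The control T cells carried neutrophil markers at a summed 11619 CPM, against 109 CPM in glioma T cells, and microglia markers at 726 CPM, against 11.9 CPM. Their part in the T cell results was not tested.

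**Figure D1:**
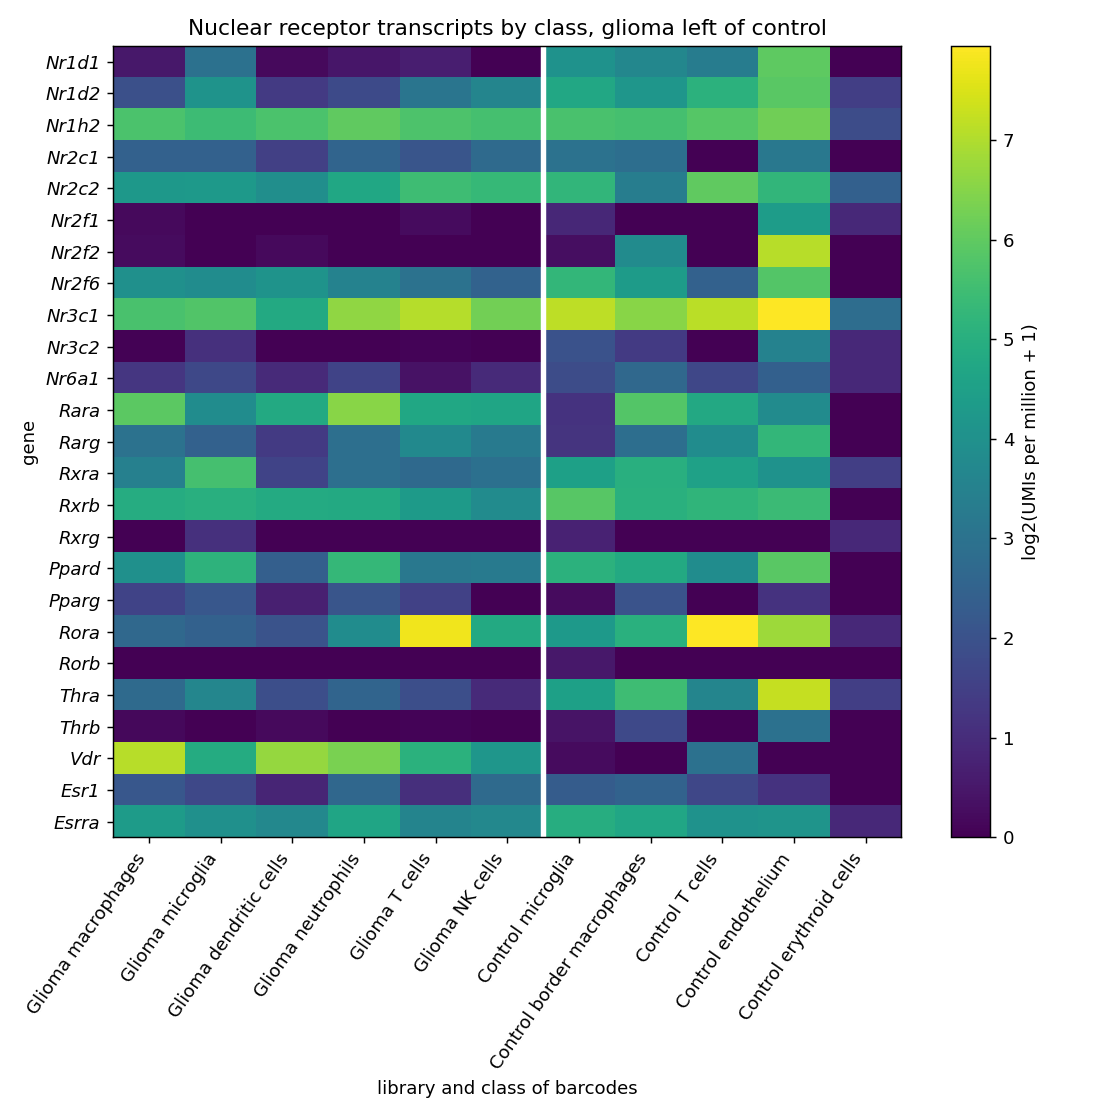
Level of each measured receptor (rows) in each class (columns), as log2(CPM + 1) of the class sum, with glioma classes left of the white line and control classes right of it. Vdr is bright in glioma classes, with 135 CPM in macrophages against 0.171 CPM in control microglia, Rora is bright in T cells of both libraries, and control endothelium is brightest in 13 of the 25 rows, in 3 of them (Nr1h2, Nr2c1 and Thrb) within counting error of the next class.

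The myeloid compartment differed in 18 of the 25 measured receptors between glioma macrophages and control microglia, the most abundant class of each library. The receptors for vitamin D (Vdr), retinoic acid (Rara, Rarg) and the lipid sensor Pparg were higher. The REV-ERB genes Nr1d1 and Nr1d2, Rora and Rorb, the glucocorticoid and mineralocorticoid receptors, both thyroid hormone receptors and several orphan receptors and RXR genes were lower. All 25 could be compared. Of them, 4 were called higher and 14 lower, where 16% and 33.4% of 14564 genes were called higher and lower. The median log2 ratio was -1.12 over the members and -0.41 over all genes compared. Under scaling by the median of ratios over genes of at least 100 UMIs, that centre lay at -0.25, and relative to it 4 of the lower calls (Nr2c2, Rxra, Ppard and Thrb) were lost. These classes are different cell lineages as well as different conditions, so lineage and glioma cannot be told apart here.

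Vdr, the receptor for active vitamin D, is located on chromosome 15 (97854425 to 97910630, minus strand, GRCm38) and had the largest positive ratio among the members. Glioma macrophages held 9197 Vdr UMIs, or 135 CPM (interval 133 to 138), and control microglia held 15 UMIs, or 0.171 CPM (0.0957 to 0.282). The log2 ratio was 9.58 (8.91 to 10.47). The 15 control UMIs lay largely in the deepest barcodes: without the 10% of barcodes with the most UMIs in each class, control microglia stood at 0.0146 CPM and the log2 ratio was 12.57. When barcodes were thinned to 2000 UMIs, which left out shallower ones (among them 47 glioma macrophages, 23 glioma T cells, 1103 control microglia and 37 control erythroid barcodes), 19.4% of glioma macrophages and 0.0267% of control microglia had a Vdr UMI, as had 4.24% of glioma T cells and 0 of 148 control erythroid barcodes. Unthinned, the share was 57.6% in glioma macrophages (median depth 11651.5 UMIs), 14.1% in glioma T cells (8134 UMIs) and 0.0729% in control microglia (6873 UMIs).

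Vdr was detected in all 6 glioma classes and in 2 of the 5 control classes. Below macrophages came glioma dendritic cells at 101 CPM, neutrophils at 80.1 CPM, T cells at 32.5 CPM, microglia at 28.6 CPM and NK cells at 16.9 CPM. Among those last 3, neighbours in this order did not differ beyond counting error. This order holds for the sums only. As a mean over cells, Vdr was 32.8 CPM in neutrophils, 19.7 CPM in T cells and 118 CPM in dendritic cells, and over all alternatives NK cells ranged between 6.24 and 31 CPM. After thinning, 5.69% of neutrophils had a Vdr UMI and 20.7% of dendritic cells (13.8% and 54.6% unthinned), with 110 neutrophils and 2 dendritic cells left out as too shallow. Glioma neutrophils carried the macrophage list at 1152 CPM, with each marker between 21.6% (Fn1) and 63.6% (Chil3) of its macrophage level, where Vdr stood at 59.3%. The gate used these markers and not Vdr, and their part in the Vdr level was not tested. In the control library, T cells had 6.74 CPM from 3 UMIs, and border macrophages, endothelium and erythroid cells had 0 UMIs. Free RNA, taken from barcodes too shallow to be cells, held Vdr at 99.9 CPM in the glioma library and 0.181 CPM in the control library. The share of free RNA was the smallest given by a few lists chosen as foreign to each class, not by all lists. It was 3.08% of the macrophage sum, 0 to 6.29% over the 6 glioma classes, and 18.5% of the control microglia sum, which enters 3 comparisons. The erythroid list set that 18.5%. The ependymal or choroid list, not among those chosen, stood at 308 CPM in control microglia, against 7990 CPM in free RNA, a smaller share. The T cell list, at 0 CPM, set the 0 in glioma microglia, where the B cell list stood at 48 CPM, against 431 CPM in free RNA. In NK cells the border macrophage list stood at 22.6 CPM, against 160 CPM in free RNA. Other shares, larger or smaller, were not subtracted, and their part in the Vdr levels was not tested. With the share from the chosen lists subtracted, the Vdr level in glioma macrophages was 137 CPM. Control microglia levels under 1 CPM moved most: Nr2f1 stood at 0.267 CPM, Rxrg at 0.263 CPM and Rorb at 0.0647 CPM with free RNA subtracted, and Pparg and Nr2f2 at 0. These values rest on the 18.5% share.

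The glioma microglia were 60 barcodes, and their Vdr level of 28.6 CPM (25 UMIs, interval 18.5 to 42.2) stood against 0.171 CPM in control microglia, a log2 ratio of 7.37 (6.41 to 8.41). Macrophage markers moved with it. Their list summed to 556 CPM in glioma microglia, against 22.4 CPM in control microglia, and 2495 CPM in glioma macrophages. The members of that list were uneven: Fn1 at 283 CPM and Msr1 at 205 CPM made up most of the sum, Arg1 stood at 11.4 CPM and Ccr2 at 6.86 CPM, and Ly6c2 and Chil3 had 0 UMIs. As a share of the glioma macrophage level, Vdr was 21.2% in glioma microglia, and the markers stood at 0 for Chil3 and Ly6c2, 2.43% for Arg1, 3.13% for Vcan, 3.18% for Ccr2, 20.2% for Ms4a4c, 71.7% for Msr1 and 84.5% for Fn1. The gate used these markers and not Vdr, and their part in the Vdr level was not tested. Without the 10% of barcodes with the most UMIs, Vdr in glioma microglia was 15.4 CPM. With a lead of 1 marker in the gate, an alternative chosen after seeing the data, it was 47.8 CPM.

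**Figure D2:**
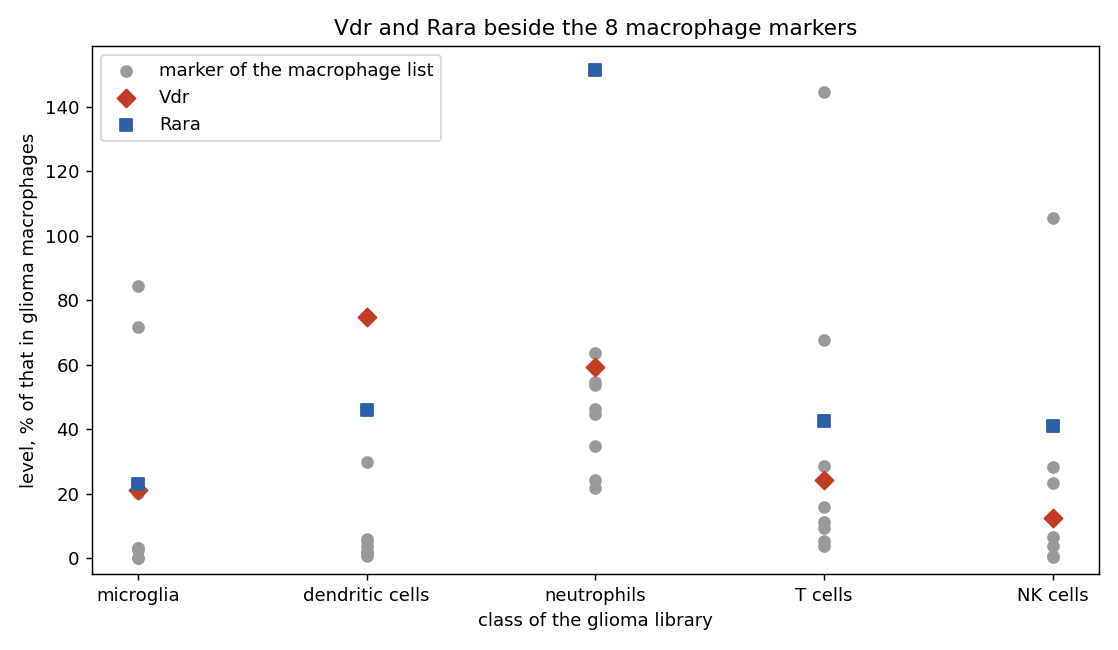
Vdr (red diamonds) and Rara (blue squares) in 5 glioma classes as a percentage of their level in glioma macrophages, beside the same share for each of the 8 genes of the macrophage list (grey circles). In dendritic cells Vdr stood at 74.8% and in T cells at 24.1%; Rara in neutrophils stood at 151%.

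Rara and Rarg encode retinoic acid receptors. Rara stood at 59.9 CPM in glioma macrophages (4066 UMIs) and at 1.25 CPM in control microglia (110 UMIs), a log2 ratio of 5.57 (5.30 to 5.86). Glioma neutrophils had the highest Rara level, 90.6 CPM. Control border macrophages, the resident macrophages of the brain's borders, had 54.8 CPM, within counting error of glioma macrophages, so this level was not limited to the tumour. The remaining leukocyte classes except control microglia lay between 13.7 CPM in glioma microglia and 27.5 CPM in glioma dendritic cells. Rarg stood at 6.91 CPM in glioma macrophages and 1.28 CPM in control microglia, a log2 ratio of 2.43 (2.14 to 2.75), with its highest level, 37.5 CPM, in control endothelium.

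The RXR genes encode the partner proteins of these receptors. Rxra was called lower in glioma macrophages, with 10.1 CPM, against 21.9 CPM in control microglia (log2 -1.12, interval -1.25 to -0.99). Rxrb had 29.2 CPM in glioma macrophages and 57.8 CPM in control microglia, a log2 ratio of -0.99 that missed the 2-fold limit. Rxrg had 0 UMIs in glioma macrophages and 60 UMIs, 0.684 CPM, in control microglia, which is 15.5-fold lower when 3 UMIs are put in place of 0. The interval of its log2 ratio reached up to -3.61, a smaller difference. The highest Rxra level was 48 CPM in glioma microglia, within counting error of control border macrophages at 31.3 CPM.

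Among the lipid sensors, Pparg is a master factor of fat storage and of alveolar macrophages. It stood at 2 CPM in glioma macrophages (136 UMIs) and 0.182 CPM in control microglia (16 UMIs), a log2 ratio of 3.42 (2.71 to 4.30). With free RNA subtracted the ratio was 8.06. No Pparg was then left in control microglia, so 8.06 depends on the 0.5 UMIs added to each sum and is not a measured size. Ppard, which responds to fatty acids, had 14.9 CPM in glioma macrophages and 33.5 CPM in control microglia (log2 -1.17), and was called lower. Nr1h2, the oxysterol sensor LXR beta, had 50.2 CPM in glioma macrophages and 49.2 CPM in control microglia, a log2 ratio of 0.03 (-0.04 to 0.09). Over all classes but erythroid cells Nr1h2 lay between 42.3 and 73.7 CPM, and no neighbours in that order differed beyond counting error. Classes further apart could differ, as in glioma neutrophils over glioma macrophages (log2 0.34, 0.10 to 0.57).

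The REV-ERB genes are repressors of the circadian clock. Nr1d1 had 29 UMIs, 0.427 CPM, in glioma macrophages and 1374 UMIs, 15.7 CPM, in control microglia, a log2 ratio of -5.17 (-5.78 to -4.67). With free RNA subtracted, glioma macrophages stood at 0.0626 CPM and glioma T cells at 0.0419 CPM, against 0.599 CPM in those T cells without subtraction, and the ratio was -7.67. Nr1d2 had 2.81 CPM in glioma macrophages and 25.9 CPM in control microglia, a log2 ratio of -3.20 (-3.42 to -2.99). Nr1d1 stood at under 1 CPM in 5 of the 6 glioma classes, the exception being microglia at 6.86 CPM from 6 UMIs. Of those 5, neutrophils and dendritic cells had 1 UMI each and NK cells 0, and the neutrophil interval reached 2.25 CPM. In 4 of the 5 control classes Nr1d1 stood between 8.99 CPM (T cells, 4 UMIs) and 61.2 CPM, and it had 0 UMIs in erythroid cells. Nr1d1 oscillates over the day in mouse tissues, and with no time of day in the labels, time and condition cannot be told apart. Nr1d1 and Thra overlap by 1075 bases on opposite strands of chromosome 11, and whether the counting used strand is not given in the sources used here, so neither level is certain to be that gene's alone. Of the ROR genes, which activate the clock genes that REV-ERBs repress, Rora had 5.47 CPM in glioma macrophages and 18.7 CPM in control microglia (log2 -1.77, -1.94 to -1.61). Rorb had 1 UMI in glioma macrophages and 37 UMIs in control microglia (log2 -4.27, -10.18 to -2.27). With free RNA subtracted, Rorb and Rxrg fell under the minimum of 20 UMIs and could not be called.

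Of the steroid receptors, Nr3c1, the glucocorticoid receptor, had 49.5 CPM in glioma macrophages (3357 UMIs) and 141 CPM in control microglia (12345 UMIs), a log2 ratio of -1.51 (-1.56 to -1.45). Nr3c2, the mineralocorticoid receptor, had 2 UMIs in glioma macrophages and 263 UMIs, 3 CPM, in control microglia (log2 -6.35, -9.72 to -4.80). Esr1, the oestrogen receptor alpha, had 3.46 CPM in glioma macrophages and 4 CPM in control microglia (log2 -0.21, -0.45 to 0.03). Esrra, an orphan receptor that drives mitochondrial genes, had 19.7 CPM in glioma macrophages and 29.9 CPM in control microglia (log2 -0.60, -0.70 to -0.51). Of the thyroid hormone receptors, Thra had 5.74 CPM in glioma macrophages and 22 CPM in control microglia (log2 -1.93, -2.10 to -1.78). Thrb had 9 UMIs in glioma macrophages and 29 UMIs in control microglia (log2 -1.27, -2.58 to -0.20).

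The orphan receptors split. Nr2f1, encoding COUP-TFI, had 11 UMIs in glioma macrophages and 75 UMIs in control microglia (log2 -2.35, -3.46 to -1.48), which was -1.35 with free RNA subtracted and -4.15 without the deepest 10% of barcodes. Nr2f6 had 14.7 CPM in glioma macrophages and 37.6 CPM in control microglia (log2 -1.36). Nr2c2, encoding TR4, had 18 CPM in glioma macrophages and 36.5 CPM in control microglia (log2 -1.02). Nr2f2, Nr2c1 and Nr6a1 were not called, with log2 ratios of -0.41, -0.59 and -0.91. Nr2c2, Nr2f6 and Esrra overlap protein-coding genes on the other strand (Mrps25, Ocel1 and Trmt112), and Nr2f1, Nr6a1, Pparg, Rora and Thrb overlap antisense transcripts, which the counts cannot separate unless strand was used.

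**Figure D3:**
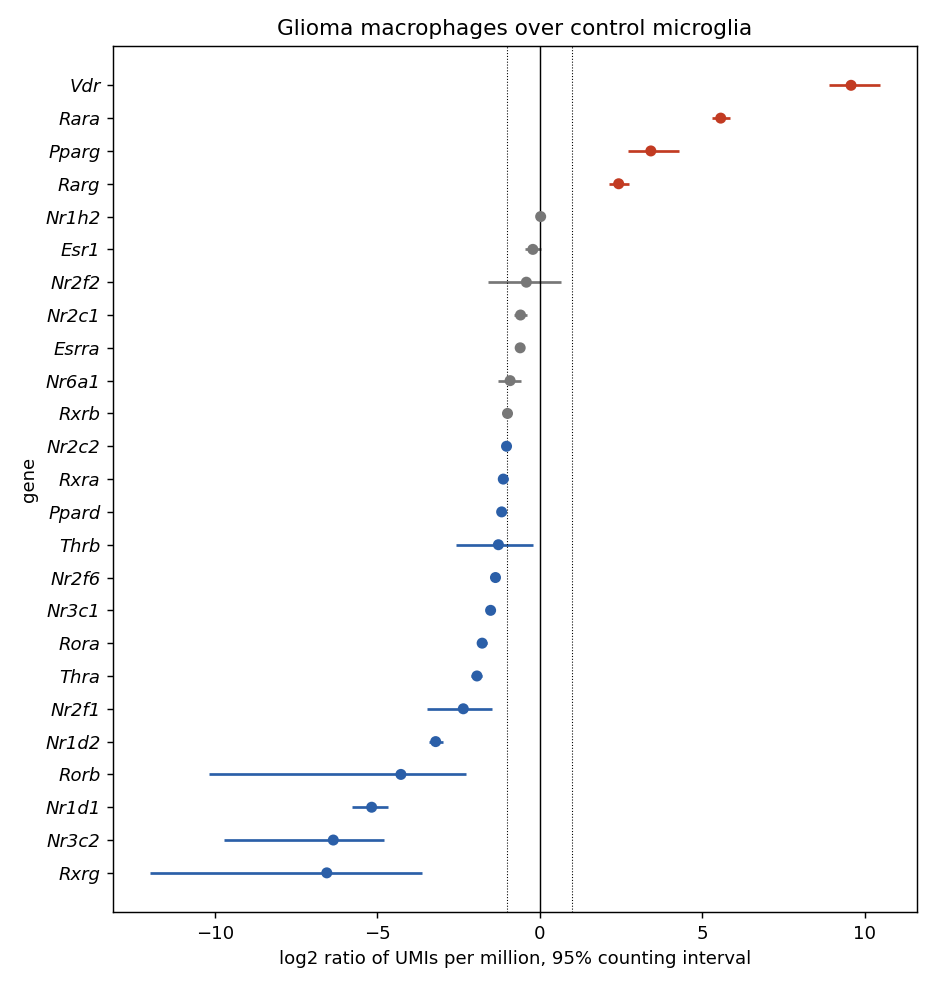
Log2 ratio of CPM, glioma macrophages over control microglia, for the 25 measured receptors, with the 95% counting interval as a line (Rxrg, with 0 UMIs in glioma macrophages, has no lower end and its line is cut at the left). Red marks the 4 called higher, blue the 14 called lower and grey the rest, and dotted lines mark 2-fold; Vdr lies at 9.58 and Nr1d1 at -5.17.

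The microglia of glioma and of control brain were compared within 1 named class, with 60 glioma barcodes, so this comparison shares its control sum with the one above. Of 24 members compared, 3 were called higher, where 6.95% of 13633 genes were, and 4 were called lower, where 12.6% were. The median log2 ratio was -0.45 over the members and -0.15 over all genes. The members called higher were Vdr, Rara and Rxra. Rara had 13.7 CPM (12 UMIs) in glioma microglia and 1.25 CPM in control microglia (log2 3.50, 2.46 to 4.31). Rxra had 48 CPM (42 UMIs) in glioma microglia and 21.9 CPM in control microglia (log2 1.15, 0.66 to 1.57). Nr3c1 was lower, with 53.8 CPM (47 UMIs) in glioma microglia and 141 CPM in control microglia (log2 -1.37, -1.83 to -0.98). Nr2f6 stood at 13.7 CPM in glioma microglia and 37.6 CPM in control microglia (log2 -1.40). Rora and Nr1d1 rested on 4 and 6 glioma UMIs, with log2 ratios of -1.86 and -1.08. The call of Nr1d1 ended with free RNA subtracted, with cells averaged and without the deepest 10% of barcodes, and that of Nr2f6 with a lead of 1 marker. The call of Rxra ended with cells averaged and with a lead of 1 marker. The centre of genes of at least 100 UMIs lay at 0.21 here, and relative to it Rxra lost its call too and 8 members in all were lower.

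T cells of the glioma differed from the 53 control T cells in 4 of 16 members compared, 1 higher (4.85% of 11100 genes were) and 3 lower (6.78% were). The median log2 ratio was -0.18 over the members and -0.02 over all genes, with a centre of genes of at least 100 UMIs at -0.17. Vdr had 32.5 CPM in glioma T cells and 6.74 CPM in control T cells, where it rested on 3 UMIs (log2 2.05, 0.72 to 4.55). The macrophage list summed to 620 CPM in glioma T cells and 1076 CPM in control T cells. In glioma T cells Vdr reached 24.1% of its macrophage level, and of the 8 macrophage markers 5 stood below that share, between 3.72% for Chil3 and 15.8% for Msr1. The other 3, Ms4a4c, Ccr2 and Ly6c2, stood at 28.5%, 67.6% and 145%. The gate used these 8 markers and not Vdr, so their shares are not a neutral measure of macrophage RNA in T cells. The part of such RNA in the Vdr level was not tested. Nr1d2 had 7.43 CPM in glioma T cells and 33.7 CPM in control T cells (log2 -2.22, -2.96 to -1.30). Rxra stood at 5.57 CPM in glioma T cells and 22.5 CPM in control T cells (log2 -2.07), and Thra at 2.76 CPM in glioma T cells and 11.2 CPM in control T cells (log2 -2.15), a call that ended when cells were averaged. Rora, which controls T helper and innate lymphoid programmes, was not called, with 219 CPM in glioma T cells and 245 CPM in control T cells (log2 -0.17, -0.44 to 0.13). Nr3c1 was not called either, with 133 CPM in glioma T cells and 137 CPM in control T cells (log2 -0.05, -0.41 to 0.35).

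Lineage differences inside the glioma library involve 1 condition only, and the 3 comparisons with glioma macrophages here share that sum. In glioma macrophages over glioma T cells, 19 members were compared, with 6 called higher (15.9% of 12840 genes were) and 4 lower (16.8% were). The median log2 ratio was 0.61 over the members and -0.05 over all genes. Rora had 5.47 CPM in macrophages and 219 CPM in T cells (log2 -5.32, -5.48 to -5.17). Nr3c1 had 49.5 CPM in macrophages and 133 CPM in T cells (log2 -1.43), and Nr2c2 and Nr1d2 were lower by log2 ratios of -1.26 and -1.40. Vdr was higher in macrophages at 135 CPM, against 32.5 CPM in T cells (log2 2.06, 1.93 to 2.19), and Rara at 59.9 CPM, against 25.5 CPM in T cells (log2 1.23). Nr6a1, Esr1, Nr2f6 and Thra were the other 4 called higher, with log2 ratios between 1.05 and 2.06, and the call of Thra ended when cells were averaged.

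Glioma dendritic cells had 0 of 19 members called higher than in glioma macrophages (8.69% of 12374 genes were) and 8 called lower (12.8% were). The median log2 ratio was -0.86 over the members and -0.15 over all genes. Lower were Rxra (2.01 CPM in dendritic cells, 10.1 CPM in macrophages, log2 -2.27), Rarg (log2 -2.09), Esr1 (-2.03), Ppard (-1.76), Pparg (-1.53), Nr2c1 (-1.25), Rara (-1.12) and Thra (-1.01). The calls of Pparg (stricter gate), Nr2c1 (cells averaged) and Thra (median of ratios) each ended in 1 alternative. Vdr was not called, with 101 CPM in dendritic cells and 135 CPM in macrophages (log2 -0.43, -0.55 to -0.31), and Nr1h2 had 50.8 CPM in dendritic cells and 50.2 CPM in macrophages. In glioma neutrophils over glioma macrophages, 2 of 19 members were called higher (10.3% of 12271 genes were) and 0 lower (7.86% were), with a median of 0.34 over the members and -0.25 over all genes. They were Ppard, with 38 CPM in neutrophils and 14.9 CPM in macrophages (log2 1.36, 1.03 to 1.66), and Rora, with 13.7 CPM in neutrophils and 5.47 CPM in macrophages (log2 1.35, 0.78 to 1.84). The neutrophils were shallow, at a median of 2616 UMIs, and carried macrophage markers at a summed 1152 CPM, against 2495 CPM in macrophages; the part of that in these ratios was not tested. Rora lost its call when the gate was stricter or when cells were averaged.

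In control brain, border macrophages over microglia gave 6 of 24 members higher (8.09% of 13667 genes were) and 1 lower (11.4% were), with a median of -0.09 over the members and -0.15 over all genes. This comparison uses the control microglia sum again. Rara had 54.8 CPM in border macrophages (70 UMIs) and 1.25 CPM in microglia (log2 5.45). Nr2f2, encoding COUP-TFII, a factor of venous endothelium, had 13.3 CPM in border macrophages from 17 UMIs and 0.239 CPM in microglia (log2 5.80, 4.78 to 6.79), and its highest level was 134 CPM in control endothelium. The border macrophage level rested on 3.21% of their barcodes, and 0 of 150 kept a UMI after thinning. With at most 5% mitochondrial UMIs it was 1.23 CPM, and there, without the deepest 10% and with free RNA subtracted it had under 20 UMIs over both sums and could not be called. The log2 ratio was 3.93 with the stricter gate. Thra had 43.8 CPM in border macrophages and 22 CPM in microglia (log2 1.01). Its call ended with at most 5% mitochondrial UMIs, under median of ratios scaling, with cells averaged and without the deepest 10%. Rarg, Pparg and Thrb were called higher on 8, 4 and 3 UMIs in border macrophages, and Rarg lost its call with the stricter gate. Nr2c2 was lower, with 9.39 CPM in border macrophages and 36.5 CPM in microglia (log2 -1.90, -2.91 to -1.15). Vdr had 0 UMIs in border macrophages, where the 95% interval reaches up to 2.89 CPM.

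Control endothelium held the highest level of 13 of the 25 measured members, but for Nr1h2, Nr2c1 and Thrb it was within counting error of the next class. It had 245 CPM of Nr3c1, 152 CPM of Thra, 110 CPM of Rora, 61.2 CPM of Nr1d1, 59.3 CPM of Nr1d2 and 20 CPM of Nr2f1. No glioma class of endothelium had 50 barcodes, so this cell type was not compared between conditions. Vdr was highest in glioma macrophages, Rara in glioma neutrophils, and Rora and Nr2c2 in control T cells, within counting error of glioma T cells for both.

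Within the larger classes, barcodes were divided further by a few marker genes of each state, with a different rule for different classes. Of the 4918 glioma macrophages, 2432 joined no set. Among glioma macrophages, Vdr stood at 222 CPM in those led by Inhba, Thbs1 and Nrg1, and at 70.2 CPM in those led by Arg1, Spp1 and Hmox1 (log2 1.66, 1.48 to 1.84). Rara stood at 101 CPM in those led by the monocyte genes Chil3, Ly6c2 and Plac8 and at 38.5 CPM in those led by Cxcl9, Ciita and Cxcl10 (log2 1.38, 1.15 to 1.62). Rarg was highest at 12.6 CPM in the Arg1 set and lowest at 2.9 CPM in the set led by Mmp13, Vcam1 and Mrc1 (log2 2.08, 1.30 to 3.01). Rora stood at 10.1 CPM in the Arg1 set and at 2.61 CPM in the Cxcl9 set (log2 1.92, 1.07 to 2.92). Nr3c1 varied less, between 41.4 CPM in the cycling set and 73.1 CPM in the set led by the interferon genes Rsad2, Ifit1 and Ifit2. Nr1h2 ranged between 42 and 63.8 CPM.

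Among glioma dendritic cells, Vdr stood at 190 CPM in those led by Ccr7, Fscn1 and Ccl22, at 142 CPM in those led by Plet1, Ccl17 and Cd209a, and at 45.3 CPM in those led by Xcr1, Clec9a and Wdfy4. The log2 ratio of the first over the last was 2.06 (1.68 to 2.46). Nr2f6 stood at 50.9 CPM in the Ccr7 set (48 UMIs) and 7.02 CPM in the Xcr1 set (log2 2.82, 1.95 to 3.87). Nr3c1 ran the other way, with 19.1 CPM in the Ccr7 set and 41 CPM in the Xcr1 set.

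Among glioma T cells, Rora stood at 481 CPM in the 64 gamma delta and IL-17 barcodes, at 330 CPM in CD4, at 260 CPM in regulatory and at 78.9 CPM in CD8 barcodes. The log2 ratio of the first over the last was 2.61 (2.35 to 2.87). Nr3c1 stood at 256 CPM in the gamma delta and IL-17 set and 104 CPM in the CD8 set (log2 1.31, 0.98 to 1.62). Rarg stood at 37.6 CPM in the gamma delta and IL-17 set, from 15 UMIs, and at 6.27 CPM in the CD8 set (log2 2.60, 1.57 to 3.54). Vdr was highest in regulatory T cells, at 48.5 CPM, against 19.9 CPM in CD8 T cells (log2 1.28, 0.90 to 1.67).

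Among control microglia, Nr1d1 stood at 20.9 CPM in barcodes with both cytokine genes (Il1a, Tnf, Gpr84) and immediate early genes (Egr1, Fos, Jun), and at 5.43 CPM in barcodes with neither (log2 1.93, 1.58 to 2.34). Nr1d2 did not follow, with 25.3 CPM in the first set and 27.7 CPM in the second. Nr3c1 had 122 CPM in the first set and 181 CPM in the second (log2 of the second over the first 0.57). Nr3c2 had 1.98 CPM in the first and 5.25 CPM in the second, and Nr2c2 had 28.5 CPM in the first and 52.7 CPM in the second. Rora had 21.8 CPM in the first and 11.4 CPM in the second. Median depth was 7969 UMIs in the first set and 4416.5 UMIs in the second, and its part in these levels was not tested.

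**Figure D4:**
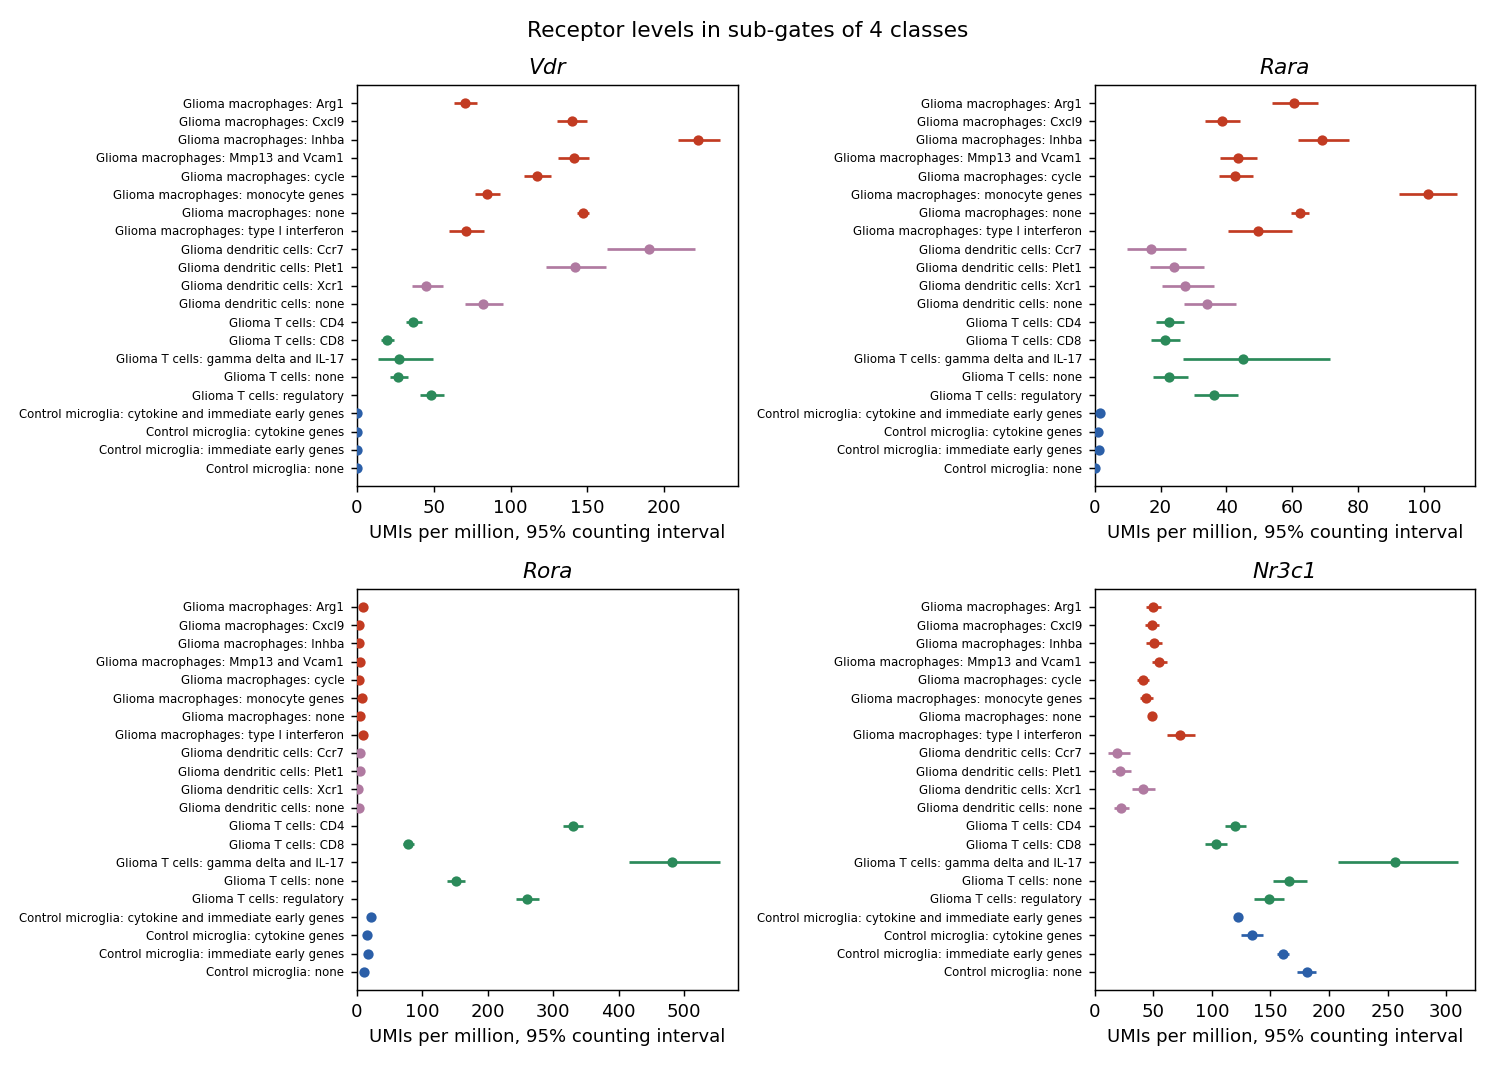
Vdr, Rara, Rora and Nr3c1 in CPM (horizontal axis from 0, with the 95% counting interval as a line) in the marker-defined sets of glioma macrophages, dendritic cells and T cells and of control microglia, with glioma above control. Vdr peaks at 222 CPM in Inhba macrophages, Rara at 101 CPM in monocyte-gene macrophages, and Rora and Nr3c1 at 481 and 256 CPM in gamma delta and IL-17 T cells.

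Genes that work with these receptors were described by 11 lists, beside the log2 median of -0.41 over all genes in glioma macrophages over control microglia. Over all genes 16% were called higher and 33.4% lower, and each count below is to be read against those shares. Of 16 clock genes compared, 2 were called higher and 7 lower, with a list median of -0.87, where 33.4% of all genes were lower. The repressor Bhlhe41 had 0.545 CPM in glioma macrophages and 109 CPM in control microglia (log2 -7.62), Hlf had 0.0884 CPM in glioma macrophages and 11.1 CPM in control microglia (-6.85) and Per3 had 0.928 CPM in glioma macrophages and 15 CPM in control microglia (-4.00), while the paralogue Bhlhe40 was higher, with 89.7 CPM in glioma macrophages and 9.03 CPM in control microglia (3.31). Of 20 coregulators, 1 was higher and 7 lower (median -0.72), a share of lower calls near that of all genes. The corepressor Nrip1 had 39.3 CPM in glioma macrophages and 283 CPM in control microglia (log2 -2.85), and Ppargc1b, a coactivator of mitochondrial genes, had 8.41 CPM in glioma macrophages and 2.29 CPM in control microglia (1.87).

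Of 14 PPAR target genes, 5 were higher and 0 lower (median 0.64). The lipid carrier Fabp5 had 665 CPM in glioma macrophages and 13.6 CPM in control microglia (log2 5.61), the fatty acid receptor Cd36 had 18.5 CPM in glioma macrophages and 2.26 CPM in control microglia (3.03), and the droplet coat gene Plin2 had 381 CPM in glioma macrophages and 52.1 CPM in control microglia (2.87). Of 15 LXR targets, 7 were higher and 2 lower (median 0.50). Apoe, which carries cholesterol, had 7372 CPM in glioma macrophages and 1210 CPM in control microglia (log2 2.61), and Mylip, which degrades the LDL receptor, had 17 CPM in glioma macrophages and 176 CPM in control microglia (-3.37). Of 12 ERR alpha targets, 3 were higher and 0 lower (median 0.69), with Cycs, cytochrome c, at 265 CPM in glioma macrophages and 88.1 CPM in control microglia (log2 1.59).

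Of 15 glucocorticoid-induced genes, 2 were higher and 4 lower (median -0.31). Sgk1, a kinase, had 111 CPM in glioma macrophages and 605 CPM in control microglia (log2 -2.45), and Cdkn1a, a cell cycle inhibitor, had 708 CPM in glioma macrophages and 122 CPM in control microglia (2.54). Of 10 chaperones and ligand enzymes of that receptor, 2 were higher and 0 lower (median 0.32). Hsd11b1, which makes active glucocorticoid, had 2.02 CPM in glioma macrophages and 0.342 CPM in control microglia (log2 2.54). Of 11 retinoid genes, 4 were higher and 4 lower (median 0.09), with Aldh1a3, which makes retinoic acid, at 3.48 CPM in glioma macrophages and 0.285 CPM in control microglia (log2 3.58) and Aldh1a1 at 0 UMIs in glioma macrophages and 80 UMIs in control microglia. Of 5 vitamin D genes compared from a list of 10, 1 was higher and 2 lower (median -0.81), with the 25-hydroxylase gene Cyp2r1 at 1.1 CPM in glioma macrophages and 3.75 CPM in control microglia (log2 -1.76). Of 8 thyroid hormone genes, 1 was higher and 3 lower (median -0.22), and Thrsp had 0 UMIs in glioma macrophages and 5287 UMIs in control microglia. Of 11 sex steroid enzymes and carriers, 3 were higher and 3 lower, with the mitochondrial protein gene Tspo at 579 CPM in glioma macrophages and 98.2 CPM in control microglia (log2 2.56).

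In glioma microglia over control microglia the same lists gave 2 higher and 7 lower of 16 clock genes (median -0.85, against -0.15 over all genes, of which 6.95% were higher and 12.6% lower), 6 higher and 1 lower of 15 PPAR targets (0.80) and 3 higher and 3 lower of 14 LXR targets (0.33). Glucocorticoid-induced genes gave 5 higher and 5 lower of 16 there (-0.64). In glioma T cells over control T cells, 1 of 15 glucocorticoid-induced genes was higher and 7 were lower (median -0.97, against -0.02 over all genes, of which 4.85% were higher and 6.78% lower). Tsc22d3, which encodes GILZ, had 99.5 CPM in glioma T cells and 398 CPM in control T cells (log2 interval -2.22 to -1.77), while Nr3c1 itself was not called there. Lower calls in T cells were not limited to that list. Clock genes gave 0 higher and 5 lower of 14 (median -0.24), and LXR targets 2 higher and 4 lower of 13 (0.18). Vitamin D genes gave 0 higher and 2 lower of 4 (-1.17), and coregulators 0 higher and 0 lower of 19 (-0.18).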

How the data were processed

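CD45+ cells of glioma and of normal brain were profiled by droplet 3' RNA sequencing, and per the labels' protocols v2 or v3 kits were used. The authors deposited whole-number UMI counts per gene and barcode, 1 unfiltered table per group. Cell Ranger 3.0.2, STAR and Seurat 3, with the builds mm10 and GRCh38, are listed in the submitters' processing notes. The 42 members and all lists were chosen with earlier results of these data known, and the gate and the rules for sets within classes were settled after looking at the data.

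Barcodes of at least 1000 UMIs and at most 10% mitochondrial UMIs entered 14 marker lists of 8 genes. No doublet caller was run; the lead of 2 markers removes some doublets, and an alternative drops the deepest 10% of barcodes. Counts were summed per class of at least 50 barcodes and divided by the class total. Ratios add 0.5 UMIs to each sum and have exact conditional binomial 95% intervals, levels have exact Poisson ones, and shares of barcodes exact binomial ones. A fold given against a sum of 0 uses 3 UMIs over the group. Genes were named where a member had at least 20 UMIs in a class, and at most 4 genes of each list, those with the largest absolute log2 ratio. Free RNA came from barcodes ranked 45000 to 90000 by UMIs. Of 9 planned comparisons, 7 were made; border macrophages and neutrophils had under 50 barcodes in 1 library (22 in glioma and 42 in control). The interval was tested on simulated data. Python 3.11.15, numpy 2.4.6, scipy 1.17.1, pandas 2.3.3 and matplotlib 3.10.9 were used. Gene positions come from GENCODE on GRCm38.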

Additional observations from a re-analysis of the deposited data

How the results depend on the processing

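Over 10 alternatives (9 planned and 1, a lead of 1 marker, added after seeing the data), the 56 called member ratios gave 512 values, of which 0 changed direction, 62 left their counting interval and 23 lost the call. No paired analysis was possible because each group is 1 pooled table. Counts of members called moved by over 1.5 times as follows. In glioma microglia over control microglia, 8 were lower under median of ratios scaling. In glioma T cells over control T cells, 5 were lower with a lead of 1 marker. In control border macrophages over control microglia, 3 were higher with at most 5% mitochondrial UMIs, with free RNA subtracted and with 100 UMIs over both sums. There 2 were lower with the stricter gate, without the 10% of barcodes with the most UMIs, and with free RNA subtracted. In glioma neutrophils over glioma macrophages, 1 was lower with the stricter gate and without the deepest 10%, and 3 as the mean over cells. The cause was not tested. In glioma macrophages over control microglia, each count stayed within 1.5 times. Vdr there ran up to 12.57 on the log2 scale without the deepest 10%. Pparg was 8.06 with free RNA subtracted, a value that depends on the 0.5 UMIs added, since none was left in control microglia. Left without 50 barcodes, and not run, were glioma microglia and control T cells under the stricter gate and at most 5% mitochondrial UMIs, and control T cells without the deepest 10%. Depth limits the 60 glioma microglia and 53 control T cells most, where many members rest on under 10 UMIs.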
